A study of Mus musculus with 6 samples.

Results

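The 10 genes described here are the core of the canonical Wnt pathway as it acts in intestinal adenomas: *Apc*, *Axin1*, *Gsk3b* and *Ctnnb1* of the β-catenin destruction complex and its substrate, the TCF factors *Tcf7*, *Lef1*, *Tcf7l1* and *Tcf7l2*, and the target genes *Myc* and *Ccnd1*. They were taken by name from the 48440 genes of the deposited tables, and all 10 were found. RNA-seq was performed on adenomas of the small intestine from 6 mice on a C57BL/6 background with an age above 42 days by the labels, with 1 library per mouse. Every mouse carried ApcMin, the nonsense allele of *Apc* that gives rise to intestinal adenomas, so no *Apc* wild-type tissue was used here to set these levels against. In the 3 ApcMin, PCdel mice (libraries QC3, QC8 and QC10) Cre was knocked into the *Defa4* locus, which is active in the Paneth cell (PC) lineage, and released diphtheria toxin A from the Rosa26 locus, so that cells of this lineage were killed. The 3 ApcMin, WT littermates (QC4, QC5 and QC6) had the Rosa26 diphtheria toxin allele without Cre. Both sexes were used in the study.

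APC, Axin and the kinase GSK3β hold β-catenin in a complex that marks it for degradation, and a Wnt ligand at the cell surface stops this. β-Catenin that escapes enters the nucleus and turns TCF factors from repressors into activators at genes such as *Myc* and *Ccnd1*. In intestinal adenomas the second copy of *Apc* is lost, and the pathway runs without full need of a ligand. PCs are a source of Wnt3 beside the stem cells of the small intestinal crypt. The comparison asks whether adenomas of mice with depleted PCs carry a different level of the machinery downstream. Much of the pathway is set by protein stability, which RNA levels do not report, and gene-level values do not separate the Min transcript of *Apc* from the wild-type one.

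The authors deposited FPKM (fragments per kilobase, relative to the size of the library), TPM and mean read coverage per gene, and no read counts. The libraries held between 5.407 and 5.876 gigabases of aligned sequence. In the genotype check the log2 difference (PCdel minus WT) was negative in all 8 PC markers, 5 of them with a limma unadjusted p under 0.05. Of all genes tested, 0.681% were lower in PCdel adenomas at that p. Among the PC markers only *Lyz1*, *Defa21* and *Defa22* had all PCdel libraries below the WT ones. The study had already named these genes as low in PCdel adenomas from the same RNA-seq, so their part of the check was not independent. *Ang4* did not hold the negative direction. Its mean was 547.4 FPKM in WT and 553.6 FPKM in PCdel adenomas, and without QC6 its log2 difference was 0.38. *Lyz1* measured 1672, 2229 and 2281 FPKM in WT against 950.3, 1148 and 1082 FPKM in PCdel adenomas. Its transcript was thus lower but still present in PCdel adenomas. *Wnt3* itself measured 1.86, 2.62 and 1.41 FPKM in WT and 0.852, 0.937 and 1.16 FPKM in PCdel adenomas. All 8 epithelial markers were detected in each library. The WT library QC6 stood apart: it was the lowest of the 6 in 46.1% of the 14240 genes tested. Its 8 epithelial markers summed to 4613 FPKM against 5287 to 6643 FPKM in the others, and its T cell markers (10 genes) summed to 35.6 FPKM against 15.8 to 30.5 FPKM. Not every marker followed its sum. In QC6 *Vil1* measured 466.0 FPKM, against 386.0 to 468.5 FPKM in the others. *Cdx2* was also inside the range of the others, and the T cell marker *Cd2* was lowest in QC6, at 0.765 FPKM. QC6 was also the lowest library in 6 of the 10 genes, so the difference of each gene and the medians of the gene lists are given with and without it. In pieces of whole adenoma, fewer cells of a type and less RNA per cell cannot be told apart.

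Across the 10 genes, no level differed between the genotypes beyond the spread between mice. Testing used limma on log2(FPKM + 1) for genes whose mean FPKM was 1 or more, and 9 of the 10 reached this level, *Tcf7l1* being the exception. After Benjamini-Hochberg adjustment over all genes tested, 0 of the 9 passed the threshold of 0.05 (each adjusted p = 1.0), against 2 of 14240 genes (0.0140%). At an unadjusted p under 0.05 there were likewise 0 of 9, where 384 genes (2.70%) were higher in PCdel adenomas and 97 (0.681%) lower. The PCdel and WT libraries did not overlap in 1 of the 9, *Axin1*, which was higher in PCdel adenomas, where 854 of all genes tested (6.00%) were apart in that direction and 219 (1.54%) in the other. The mean was higher in PCdel adenomas in 8 of the 9, with *Myc* as the exception, but 63.1% of all genes tested had a positive difference too. This lean depended on the scaling and on QC6: with quantile normalization, or with libraries centred on the median gene or on the epithelial markers, 5 genes had a positive and 4 a negative difference, with TPM all 10 were positive, and without QC6 there were 6 positive and 3 negative. Among genes with an unadjusted p under 0.05 the share that was higher in PCdel adenomas was 79.8% as deposited, 58.9% with quantile normalization, 61.4% and 54.7% with the respective centrings, 88.7% with TPM, 63.5% with array quality weights and 59.3% without QC6.

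**Figure D1:**
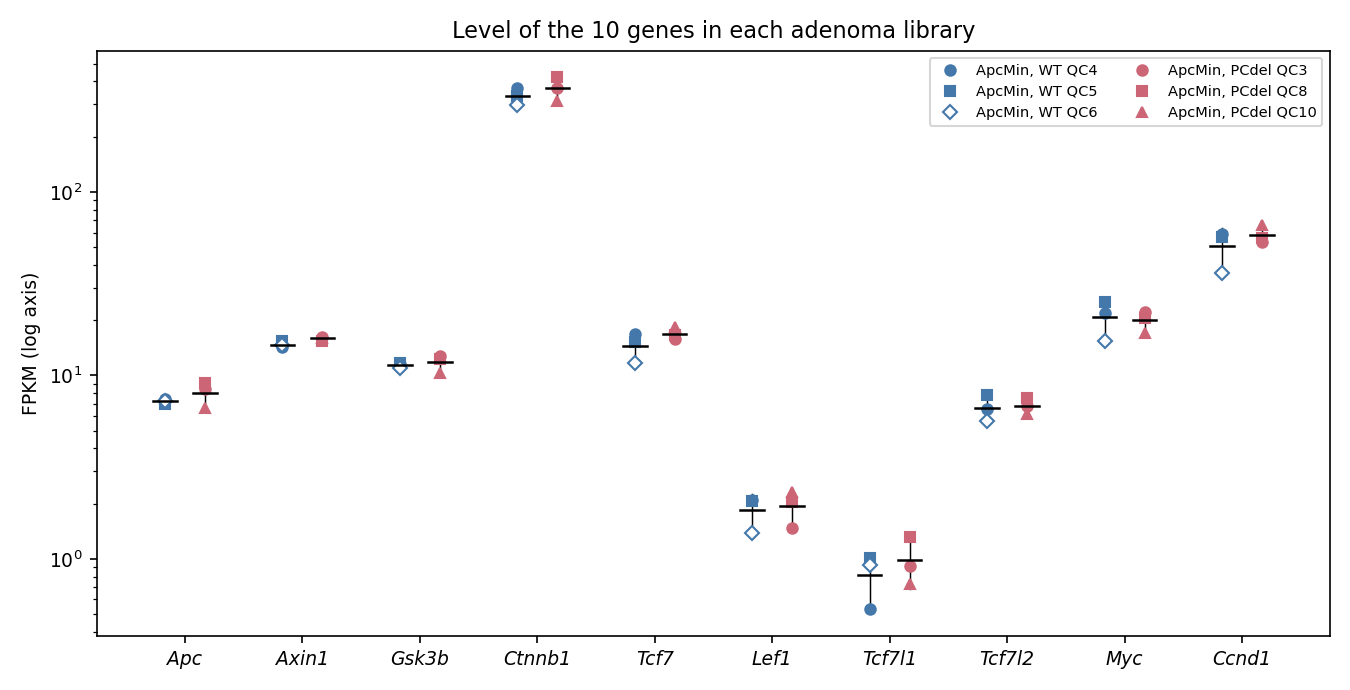
The level of the 10 genes in each adenoma library, in FPKM on a log axis, with WT libraries in blue and PCdel libraries in red. Horizontal lines are means and vertical lines SD of 3 mice. QC6 is the open diamond, and the levels run from 0.532 FPKM in *Tcf7l1* to 420.3 FPKM in *Ctnnb1*, with the genotypes overlapping in every gene but *Axin1*.

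*Apc* (chromosome 18, 34220924 to 34322189, plus strand, GRCm38), the scaffold that is mutated in these tumors, measured 7.42, 6.97 and 7.22 FPKM in QC4, QC5 and QC6 and 8.40, 9.09 and 6.63 FPKM in QC3, QC8 and QC10. Both the highest and the lowest library were PCdel, and the WT values lay between them. The mean was 7.21 ± 0.225 FPKM (SD, n = 3) in WT and 8.04 ± 1.27 FPKM (SD, n = 3) in PCdel adenomas. On the log2 scale the difference was 0.13 (SE 0.13, 95% confidence interval -0.17 to 0.43, limma unadjusted p = 0.342), which leaves a fold between 0.887 and 1.35. Without QC6 the difference was again 0.13. The exact two-sided permutation p was 0.4, where 3 mice against 3 cannot go below 0.1. *Apc* transcript was present in every adenoma of both genotypes.

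*Axin1* (chromosome 17, 26138688 to 26195811, plus strand), the scaffold on which the complex is built, was the least variable of the 10 genes, with a coefficient of variation over the 6 libraries of 5.12% (median of all genes tested, 13.9%). Its level was 14.2, 15.3 and 14.6 FPKM in WT and 16.2, 15.4 and 16.1 FPKM in PCdel adenomas. The lowest PCdel library and the highest WT library lay next to each other. The difference was 0.11 (SE 0.09, 95% confidence interval -0.10 to 0.31, limma unadjusted p = 0.271), and the permutation p of 0.1 was the smallest that this design can give. *Axin1* was no longer apart with quantile normalization or either centring, and its difference was 0.10 without QC6.

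*Gsk3b* (chromosome 16, 38089001 to 38246084, plus strand), the kinase that phosphorylates β-catenin, was also steady, at 11.5, 11.7 and 10.97 FPKM in WT and 12.7, 12.3 and 10.3 FPKM in PCdel adenomas. The PCdel libraries held both extremes. Its difference was 0.04 (SE 0.11, 95% confidence interval -0.22 to 0.30, limma unadjusted p = 0.728), turned negative with quantile normalization and both centrings, at -0.01 each, and was 0.01 without QC6.

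*Ctnnb1* (chromosome 9, 120929216 to 120960507, plus strand), which encodes β-catenin itself, had by far the highest FPKM of the 10. It measured 367.3, 334.4 and 297.6 FPKM in QC4, QC5 and QC6 and 367.0, 420.3 and 312.0 FPKM in QC3, QC8 and QC10, with overlapping genotypes. The mean was 333.1 ± 34.9 FPKM (SD, n = 3) in WT and 366.4 ± 54.1 FPKM (SD, n = 3) in PCdel adenomas. Its difference of 0.13 (SE 0.15, 95% confidence interval -0.24 to 0.50, limma unadjusted p = 0.423) was 0.05 without QC6. A stretch of 759 of its exon bases is also exon of *Ulk4* on the opposite strand, and 13.2% of its 31-base words occur there. The sources used here do not say whether reads were assigned by strand. *Ulk4* was listed at no more than 0.129 FPKM by that same assignment, and the part of its reads in the level of *Ctnnb1* was not tested.

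The 4 TCF factors bind the same DNA motif through a shared HMG box, and β-catenin binds them all. *Tcf7* (TCF1) lies on chromosome 11 (52252371 to 52283014, minus strand), *Lef1* on chromosome 3 (131110471 to 131224356, plus strand), *Tcf7l1* (TCF3), known mainly as a repressor, on chromosome 6 (72626378 to 72789254, minus strand), and *Tcf7l2* (TCF4), the factor that maintains the stem cells of the small intestine, on chromosome 19 (55741810 to 55933654, plus strand). A comparison of their levels needs reads to be told apart between them. The 90 bases below, from the end of the HMG box in the GENCODE M21 coding sequence of each gene (GRCm38), are shown because they are where the family is most alike, and capitals mark the 64 bases that are the same in all 4 genes.
Tcf7: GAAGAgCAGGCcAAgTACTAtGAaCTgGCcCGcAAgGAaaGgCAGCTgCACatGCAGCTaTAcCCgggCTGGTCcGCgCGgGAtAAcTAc
Lef1: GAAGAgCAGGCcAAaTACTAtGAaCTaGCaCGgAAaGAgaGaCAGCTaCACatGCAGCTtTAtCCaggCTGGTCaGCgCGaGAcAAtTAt
Tcf7l1: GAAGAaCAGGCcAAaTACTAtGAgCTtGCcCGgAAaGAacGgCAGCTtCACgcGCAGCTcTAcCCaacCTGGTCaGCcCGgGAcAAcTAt
Tcf7l2: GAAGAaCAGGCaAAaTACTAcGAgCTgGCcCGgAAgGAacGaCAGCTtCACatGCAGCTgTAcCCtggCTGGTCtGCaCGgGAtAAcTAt

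These are coding bases 694 to 783 of 909 in *Tcf7*, 1021 to 1110 of 1191 in *Lef1*, 1201 to 1290 of 1797 in *Tcf7l1* and 1111 to 1200 of 1818 in *Tcf7l2*. Against *Tcf7*, 74 bases were the same in *Lef1*, 72 in *Tcf7l1* and 76 in *Tcf7l2*, and the longest unbroken run was 14 bases, in *Lef1*. Most of the lower-case differences stand alone, every few bases. Over the whole transcripts, 0 of the 31-base words of any TCF gene occurred in another, so a read of that length without errors has 1 home in the family.

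*Tcf7* was the most abundant TCF factor in each of the 6 adenomas. It measured 16.7, 15.1 and 11.7 FPKM in QC4, QC5 and QC6 and 15.8, 16.5 and 18.4 FPKM in QC3, QC8 and QC10. QC6 was the lowest, and the other WT libraries overlapped with the PCdel ones. The mean was 14.5 ± 2.55 FPKM (SD, n = 3) in WT and 16.9 ± 1.32 FPKM (SD, n = 3) in PCdel adenomas, a log2 difference of 0.22 (SE 0.15, 95% confidence interval -0.13 to 0.57, limma unadjusted p = 0.182, exact permutation p = 0.3). Without QC6 it was 0.08. With libraries centred on epithelial markers, *Tcf7* was apart between the genotypes (0.17, limma unadjusted p = 0.362), as were 2.39% of all genes under that scaling.

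*Lef1*, which is low in normal intestinal epithelium and known from lymphocytes and tumors, measured 2.09, 2.07 and 1.38 FPKM in WT and 1.46, 2.03 and 2.30 FPKM in PCdel adenomas. The genotypes covered nearly the same range. Its difference was 0.04 (SE 0.17, 95% confidence interval -0.35 to 0.44, limma unadjusted p = 0.804) and -0.08 without QC6. T cells also express *Tcf7* and *Lef1*, and their markers summed to 15.8, 20.2 and 35.6 FPKM in WT and 27.0, 23.3 and 30.5 FPKM in PCdel adenomas. QC6 had the highest sum of T cell markers and the lowest level of both genes, but it was the lowest library in 46.1% of all genes tested. The part of T cells in these levels was not tested. Of the exon bases of *Lef1*, 1208 are also exon of *Gm43352* on the opposite strand, a gene listed at 0.194 to 0.4995 FPKM.

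*Tcf7l2* measured 6.53, 7.84 and 5.61 FPKM in WT and 6.81, 7.52 and 6.12 FPKM in PCdel adenomas. All PCdel values lay within the range of the WT ones. Its difference of 0.04 (SE 0.14, 95% confidence interval -0.30 to 0.37, limma unadjusted p = 0.806) was -0.07 without QC6. *Tcf7l1* was near the limit of what was tested, at 0.532, 1.01 and 0.921 FPKM in WT and 0.912, 1.31 and 0.727 FPKM in PCdel adenomas. In a fit without the filter on low values its difference was 0.12 (SE 0.16, 95% confidence interval -0.27 to 0.51, limma adjusted p = 0.991), and without QC6 it was 0.17. With a coefficient of variation of 29.2% it was the most variable of the 10 genes.

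In the summed FPKM of the family, *Tcf7* made up 60.8 ± 3.39% (SD, n = 3) in WT and 63.4 ± 3.24% (SD, n = 3) in PCdel adenomas. *Tcf7l2* followed with 28.0 ± 2.48% in WT and 25.7 ± 2.95% in PCdel adenomas. *Lef1* held 7.69 ± 0.580% and 7.22 ± 1.27%, and *Tcf7l1* 3.54 ± 1.35% and 3.70 ± 1.08%. The genotypes overlapped in all 4 shares, for which no test was run. In QC6, where the level of *Tcf7* was lowest, its share was 59.7%, inside the range of the other libraries (58.1% to 66.7%).

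How far *Tcf7* led depended on the measure of level. FPKM of a gene rests on the lengths of the transcripts to which its reads were assigned. The coverage column gives a second measure, which rests on 1 chosen transcript length per gene instead. That second measure is the gene's aligned bases (coverage times the length of its merged exons), divided by the length of its longest coding transcript in GENCODE M21 and by the library's aligned gigabases. This measure, called the base level here, has the unit of FPKM, and it was chosen after the values were seen. By base level, *Tcf7* made up 84.4 ± 1.81% (SD, n = 3) of the family in WT and 85.5 ± 1.64% (SD, n = 3) in PCdel adenomas, and *Tcf7l2* 9.65 ± 1.65% and 8.60 ± 1.59%. *Tcf7l1* (3.50 ± 0.561% and 3.78 ± 0.470%) then stood above *Lef1* (2.42 ± 0.333% and 2.16 ± 0.335%). By either measure *Tcf7* was first and *Tcf7l2* second in all 6 libraries, while the order of *Lef1* and *Tcf7l1* turned.

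**Figure D2:**
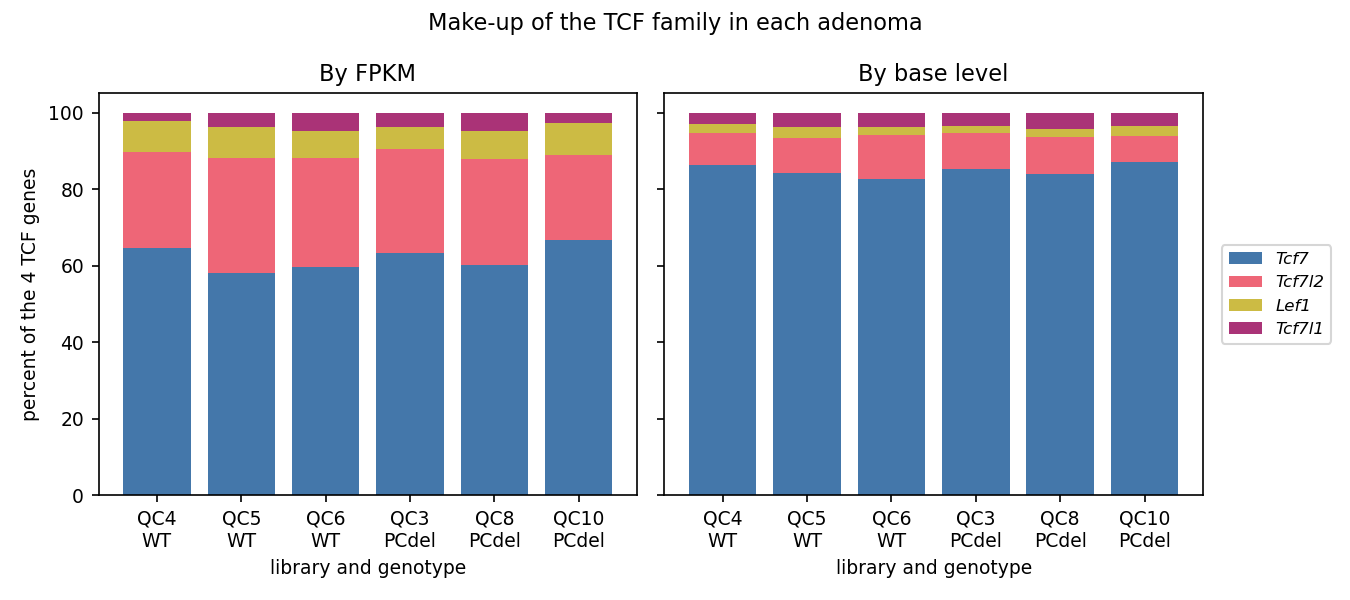
Percent of each TCF gene in the summed level of the 4 TCF genes, 1 bar per adenoma library, by FPKM (left) and by base level (right). *Tcf7* takes 58.1% to 66.7% of each bar on the left and 82.7% to 87.2% on the right, with the genotypes overlapping on both sides.

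The gap between the measures was widest for *Ctnnb1*. Its mean over the 6 libraries was 349.8 FPKM but a base level of 69.0, a ratio of 5.07, as if its reads had been assigned to transcripts of 718 bases on average, where its longest coding transcript has 3623. The same ratio was 4.64 in *Lef1*, 4.24 in *Tcf7l2* and 2.99 in *Apc*. It was 1.01 in *Ccnd1*, 1.04 in *Tcf7*, 1.06 in *Axin1*, 1.12 in *Gsk3b*, 1.33 in *Myc* and 1.40 in *Tcf7l1*. The transcripts behind the deposited FPKM are not given in the sources used here, so which measure is nearer to the number of molecules was not tested.

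By mean FPKM over the 6 libraries the 10 genes ranked *Ctnnb1* (349.8), *Ccnd1* (54.5), *Myc* (20.3), *Tcf7* (15.7), *Axin1* (15.3), *Gsk3b* (11.6), *Apc* (7.62), *Tcf7l2* (6.74), *Lef1* (1.89) and *Tcf7l1* (0.901). The libraries of *Myc* and *Tcf7* overlapped, as did those of *Tcf7* and *Axin1* and those of *Apc* and *Tcf7l2*, while the other neighbours did not overlap. Compared within each library, *Myc* was above *Tcf7* in 5 of 6, *Tcf7* above *Axin1* in 3 of 6 and *Apc* above *Tcf7l2* in 5 of 6. The order by base level was the same except for *Lef1* and *Tcf7l1*, but the lead of *Ctnnb1* over *Ccnd1* shrank to 69.0 against 54.1, with overlapping libraries although *Ctnnb1* was above *Ccnd1* in 6 of 6. *Apc* (2.55) and *Tcf7l2* (1.59) no longer overlapped on that scale, and the level of *Apc* per length was well below those of *Axin1* (14.5) and *Gsk3b* (10.4) by either measure.

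**Figure D3:**
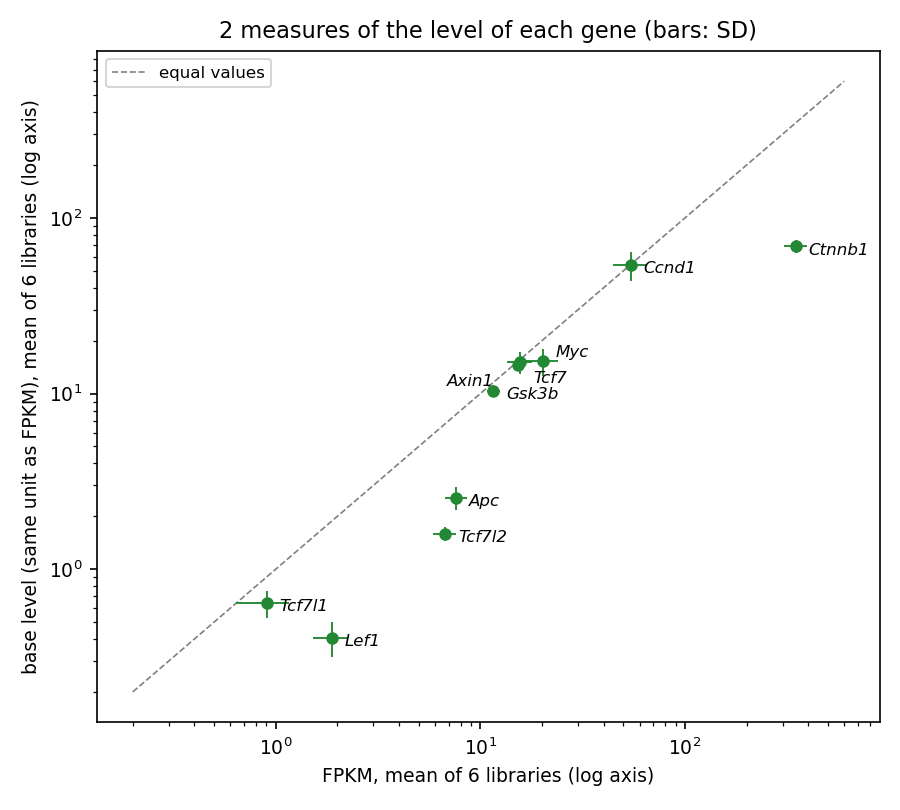
Mean FPKM (x axis, log) against mean base level (y axis, log, same unit) over the 6 libraries for each gene, with SD bars and a dashed line of equal values. *Ccnd1*, *Tcf7*, *Axin1* and *Gsk3b* lie on or near the line, and *Ctnnb1*, *Lef1*, *Tcf7l2* and *Apc* lie below it by ratios of 5.07, 4.64, 4.24 and 2.99.

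*Myc* (chromosome 15, 61985341 to 61990374, plus strand), the transcription factor through which loss of *Apc* drives growth of the epithelium, was the only gene of the 9 tested with a lower mean in PCdel adenomas. It measured 21.7, 25.2 and 15.4 FPKM in QC4, QC5 and QC6 and 22.03, 20.6 and 17.03 FPKM in QC3, QC8 and QC10. The WT libraries held both extremes, and QC6 was the lowest. The mean was 20.8 ± 4.96 FPKM (SD, n = 3) in WT and 19.9 ± 2.58 FPKM (SD, n = 3) in PCdel adenomas, a difference of -0.04 (SE 0.19, 95% confidence interval -0.50 to 0.42, limma unadjusted p = 0.841, exact permutation p = 0.9). Without QC6 the difference was -0.23 (95% confidence interval -0.58 to 0.12, limma unadjusted p = 0.151), and with TPM it was 0.02.

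*Ccnd1* (chromosome 7, 144929931 to 144939925, minus strand) encodes cyclin D1, which opens the cell cycle with CDK4 and CDK6. It measured 59.1, 56.5 and 36.2 FPKM in WT and 53.3, 55.9 and 66.1 FPKM in PCdel adenomas. QC6 lay far below the other WT libraries, which lay among the PCdel ones. The range of *Ccnd1* over the 6 libraries, 0.85 on the log2(FPKM + 1) scale, was the widest of the 10 genes on that scale, which compresses that of the weakly expressed *Tcf7l1*. The mean was 50.6 ± 12.5 FPKM (SD, n = 3) in WT and 58.5 ± 6.78 FPKM (SD, n = 3) in PCdel adenomas, a difference of 0.23 (SE 0.20, 95% confidence interval -0.26 to 0.72, limma unadjusted p = 0.297). Without QC6 it was 0.01 (95% confidence interval -0.29 to 0.31). With libraries centred on the epithelial markers the genotypes did not overlap (0.18, limma unadjusted p = 0.332), as in 2.39% of all genes under that scaling. *Ccnd1* shares 1100 exon bases, 23.4% of its total, with *Oraov1* on the opposite strand. *Oraov1* measured 5.83 to 10.02 FPKM and was highest in QC6, where *Ccnd1* was lowest. The part of its reads in the level of *Ccnd1* was not tested.

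**Figure D4:**
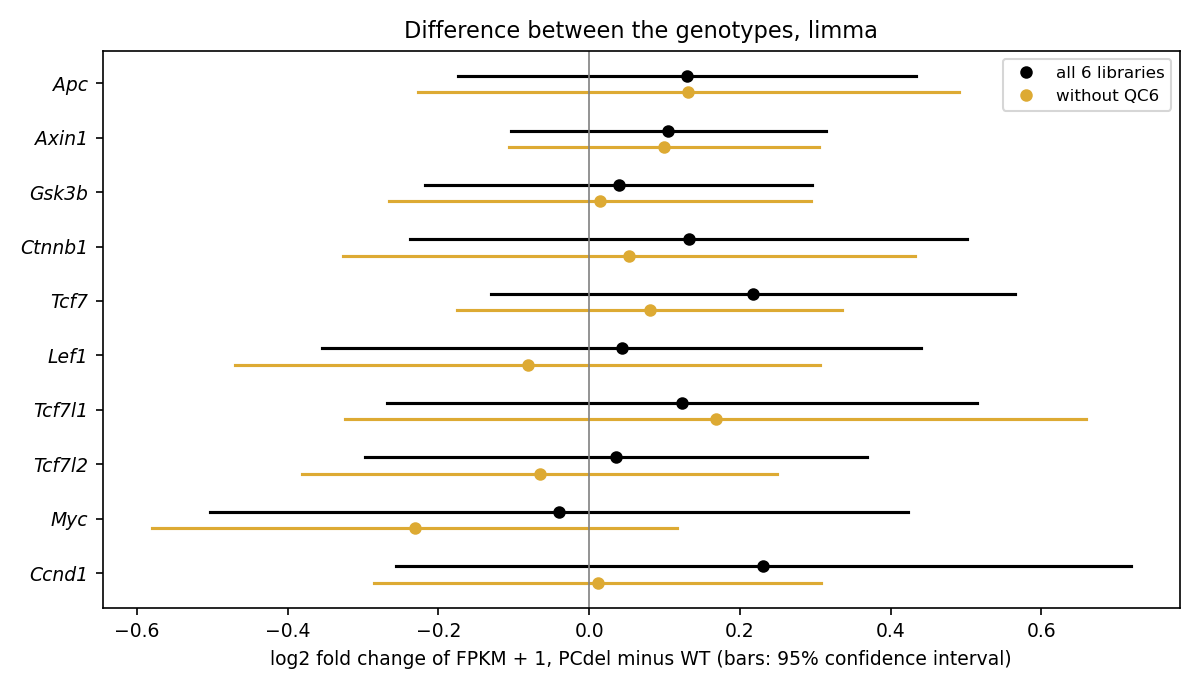
Difference between PCdel and WT adenomas for each gene on the log2(FPKM + 1) scale, with 95% confidence intervals from limma, for all 6 libraries (black) and without QC6 (yellow). *Tcf7l1* is from fits without the filter on low values. Each interval includes 0, and leaving out QC6 moves *Ccnd1* from 0.23 to 0.01 and *Myc* from -0.04 to -0.23.

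With the deposited scaling and all 6 libraries, the intervals give the sizes that 3 mice against 3 leave possible. The tightest was that of *Axin1*, whose fold lay between 0.930 and 1.24, followed by *Gsk3b* (0.860 to 1.23) and *Apc* (0.887 to 1.35). The widest was that of *Ccnd1* (0.837 to 1.65), and *Myc* ranged from 0.705 to 1.34. Other settings moved these limits. With epithelial centring the log2 interval of *Axin1* ran from -0.42 to 0.53, and without QC6 that of *Myc* ran from -0.58 to 0.12. The folds given here are of FPKM + 1 and understate the change of *Lef1* (0.782 to 1.36) and other weakly expressed genes. On the log2(FPKM + 1) scale none of the 10 genes spanned more than 1, so by the rule set for this no genes were named for a pattern like theirs.

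The genes that work with these 10 were counted in 6 lists, and none of their genes passed the adjusted threshold. The counts in each list stand beside those of all genes tested. Of these, 63.1% had a positive difference as deposited and 49.7% with quantile normalization. At an unadjusted p under 0.05, 2.70% were higher and 0.681% lower in PCdel adenomas. Of 20 further proteins of the destruction complex and its control, 19 were tested, *Apc2* being too low. The log2 difference was positive in 16 and negative in 3. The median was 0.09, where that of all genes tested was 0.04, and without QC6 these medians were 0.02 and -0.0027. *Dvl2*, a Dishevelled protein that relays the Wnt signal to the complex, measured 2.28, 2.31 and 2.54 FPKM in WT and 3.04, 3.43 and 2.95 FPKM in PCdel adenomas. It was the 1 gene of this list with an unadjusted p under 0.05 (0.29, SE 0.10, limma unadjusted p = 0.0257), and it kept this without QC6 (0.33, limma unadjusted p = 0.0214). *Csnk1a1*, the kinase that primes β-catenin for GSK3β, was the most abundant, at 83.3 ± 0.823 FPKM (SD, n = 3) in WT and 92.3 ± 2.40 FPKM (SD, n = 3) in PCdel adenomas (0.15, limma unadjusted p = 0.153). *Ppp2r1a*, a phosphatase subunit, came next with 64.2 and 68.2 FPKM. The outermost differences were those of *Rnf146* (0.37), which marks Axin for degradation, and of *Siah1b* (-0.07), and neither had an unadjusted p under 0.05.

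Among 20 nuclear cofactors of β-catenin and TCF, 19 were tested (*Pygo1* was too low), with 13 positive and 6 negative log2 differences and a median of 0.08, or 0.02 without QC6. *Tle3*, a Groucho-type corepressor that TCF factors recruit when β-catenin is absent, measured 12.3, 12.0 and 10.8 FPKM in WT and 13.6, 13.5 and 15.2 FPKM in PCdel adenomas (0.25, limma unadjusted p = 0.0432, and 0.0748 without QC6). The other corepressors *Aes* (312.6 and 298.9 FPKM in WT and PCdel adenomas) and *Ctbp1* (61.7 and 74.2 FPKM) were the most abundant of the list and overlapped. *Pygo2*, which tethers the β-catenin complex to chromatin, gave the largest difference (0.93, limma unadjusted p = 0.0832) on libraries that did not hold together, with 20.7, 5.04 and 6.17 FPKM in WT and 19.0, 18.2 and 16.0 FPKM in PCdel adenomas. The lowest difference was that of *Tbl1xr1* (-0.13), where QC5 measured 4.64 FPKM and QC4 13.8 FPKM.

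Of 30 β-catenin/TCF target genes of the intestine, 29 were tested, and *Tdgf1* was listed at 0 in every library. The log2 difference was positive in 19 and negative in 10, with a median of 0.05, and without QC6 the median was -0.06. *Id2*, an inhibitor of differentiation factors, measured 50.0, 42.8 and 43.6 FPKM in WT and 52.9, 54.6 and 56.9 FPKM in PCdel adenomas (0.27, limma unadjusted p = 0.0375, and 0.0582 without QC6). *Znrf3*, which removes Wnt receptors from the cell surface, measured 5.25, 4.69 and 4.23 FPKM in WT and 5.67, 6.10 and 5.80 FPKM in PCdel adenomas (0.26, limma unadjusted p = 0.0424, and 0.0778 without QC6). *Mmp7*, a matrix protease that PCs also make, had the lowest difference, -0.22, and without QC6 it was -0.55 (limma unadjusted p = 0.00974). In that fit *Birc5* was the only other gene of this list with an unadjusted p under 0.05 (-0.31, limma unadjusted p = 0.0312). With all 6 libraries its difference was -0.11. *Notum*, a secreted enzyme that inactivates Wnt ligands, had the highest, 0.32, and ranged in WT adenomas from 23.9 FPKM in QC6 to 84.9 FPKM in QC4, with -0.19 without QC6. The list summed to 1236, 1216 and 778.6 FPKM in WT and 959.6, 1128 and 1105 FPKM in PCdel adenomas, so that the spread within WT was wider than that between the genotypes.

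The 14 genes of the Myc network were all tested, with 12 positive and 2 negative log2 differences, where 63.1% of all genes tested were positive. None had an unadjusted p under 0.05. Their median was 0.09, and 0.0061 without QC6. *Mxd1*, a partner of MAX that opposes MYC, was the most abundant, at 79.5 ± 7.99 FPKM (SD, n = 3) in WT and 94.6 ± 12.7 FPKM (SD, n = 3) in PCdel adenomas, overlapping. *Max*, the obligate partner of MYC, measured 58.4 ± 13.4 and 61.0 ± 18.7 FPKM. *Mycn* (0.32) and *Mxi1* (-0.09) bounded the list. Of 25 Myc target genes, 13 had a positive and 12 a negative log2 difference, again none with an unadjusted p under 0.05, from *Apex1* (-0.33) to *Cdk4* (0.32, limma unadjusted p = 0.0932). Their median was 0.02, and without QC6 it turned to -0.08, with 1 gene at an unadjusted p under 0.05 (*Nme1*, -0.22, limma unadjusted p = 0.0406). The most abundant were *Ldha* at 1163 and 1176 FPKM and the nucleolar *Npm1* at 264.1 and 256.7 FPKM in WT and PCdel adenomas.

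Of 14 partners of the D-type cyclins 13 were tested (*Cdkn2a* was too low), 9 with a positive and 4 with a negative log2 difference. Their median was 0.05, and without QC6 it turned to -0.04. *Cdk4*, the kinase of cyclin D1, measured 93.5, 94.4 and 112.0 FPKM in WT and 101.3, 130.5 and 147.9 FPKM in PCdel adenomas, overlapping. The inhibitor *Cdkn1a* measured 81.7 ± 16.8 FPKM (SD, n = 3) in WT and 80.1 ± 12.9 FPKM (SD, n = 3) in PCdel adenomas. The inhibitor *Cdkn1b* had the lowest difference, -0.28 (limma unadjusted p = 0.178). Without QC6 it was -0.47 (limma unadjusted p = 0.00756), the only gene of this list with an unadjusted p under 0.05 in either fit. The 8 proliferation markers had a median of 0.04, or -0.09 without QC6, and summed to 330.9, 302.2 and 243.3 FPKM in WT and 305.8, 287.1 and 285.0 FPKM in PCdel adenomas.

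**Figure D5:**
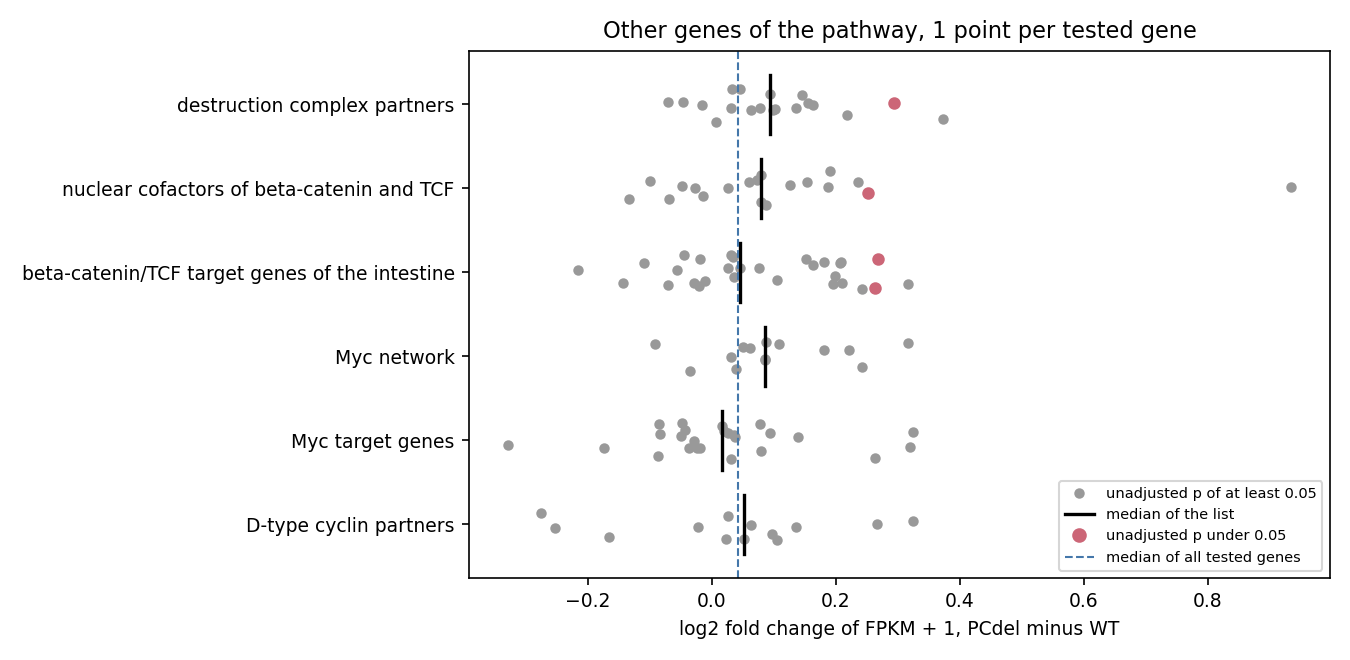
Difference between PCdel and WT adenomas on the log2(FPKM + 1) scale for each tested gene of the 6 lists, 1 point per gene, with the list median as a black bar and the median of all genes tested (0.04) as a dashed line. Points with an unadjusted p under 0.05 (*Dvl2*, *Tle3*, *Id2* and *Znrf3*) are in red, and with all 6 libraries the list medians lie between 0.02 and 0.09.

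Cells other than the epithelium carry these genes too, and the markers of some of them had a higher mean in PCdel adenomas. All 8 macrophage markers had a higher mean in PCdel adenomas, 3 of them with an unadjusted p under 0.05. Singly, 4 of them did not overlap, where 6.00% of all genes tested were apart in that direction. Their sum, which rests mainly on *C1qa*, *C1qb* and *C1qc*, did not overlap (114.4 to 126.8 FPKM in WT, 142.9 to 164.3 FPKM in PCdel adenomas). Likewise all 8 stromal markers had a higher mean, 2 with an unadjusted p under 0.05, and their sum ran from 215.7 to 318.1 FPKM in WT and from 271.1 to 420.5 FPKM in PCdel adenomas. All 8 smooth muscle and all 8 tested T cell markers had a positive log2 difference too, 0 of them with an unadjusted p under 0.05. Of all genes tested, 63.1% had a positive difference and 2.70% were higher in PCdel adenomas with an unadjusted p under 0.05. The median difference was 0.35 for macrophages, 0.27 for stroma, 0.33 for smooth muscle, 0.12 for T cells, 0.05 for endothelium, 0.04 for B and plasma cells and 0.02 for epithelium. Without QC6 these medians were 0.36, 0.11, 0.38, 0.39, -0.12, 0.20 and -0.10 in the same order. In that fit 5 macrophage, 1 stromal and 3 T cell markers were higher in PCdel adenomas with an unadjusted p under 0.05. The endothelial marker *Emcn* was lower (-0.53, limma unadjusted p = 0.0267). Of all 14264 genes tested in that fit, 824 had an unadjusted p under 0.05, 489 higher and 335 lower in PCdel adenomas. Each of these marker lists was detected in every library, and the part of these cells in the levels above was not tested.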

How the data were processed

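RNA-seq of 6 adenoma samples, 1 library per mouse, was compared between 3 ApcMin, PCdel and 3 ApcMin, WT mice, grouped by the sample titles. By the study's methods, RNA was extracted on RNeasy columns, libraries were made with the TruSeq RNA kit, sequenced on a HiSeq2500, and aligned in CLC Genomics Workbench. The authors deposited FPKM and TPM per gene and the unscaled mean coverage. The program, annotation and strand setting behind these values are not given in the sources used here. Gene positions were read as GRCm38. No read counts were used, so no count model, counting interval or detection floor was computed, and 0 other columns of per-sample values were present.

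Entries of 1 gene were summed, giving 48440 genes. Those with a mean FPKM of at least 1 (14240) were fitted with limma 3.58.1 (R 4.3.3) by lmFit and a trended eBayes, without covariates, on log2(FPKM + 1), with Benjamini-Hochberg adjustment, a threshold of 0.05 and 95% confidence intervals. Permutation tests of single genes were exact and two-sided. The p-values measure the spread between these mice. The limma fit was tested on simulated data, and coverage times exon length gave 93.7% to 94.91% of the aligned bases. Shared sequence was counted as 31-base words of GENCODE M21 transcripts, on either strand.

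The 10 genes and all lists were chosen with earlier results of these data known. From each list of partner and target genes were named every gene with an unadjusted p under 0.05 and non-overlapping groups, the 2 of highest mean FPKM and those with the largest positive and negative difference. Other genes given by name are outside this rule. They are those too low to test, *Ulk4*, *Gm43352*, *Oraov1*, *Wnt3*, *Birc5*, *Nme1* and cell type markers such as *Lyz1*, *Ang4* and *Emcn*. The alternatives changed the pseudocount to 0.1, dropped the filter or set it to 5, replaced FPKM by TPM, normalized by quantiles, centred libraries on the median ratio or on 5 epithelial markers, and used eBayes without trend, array quality weights, a score of Y-linked genes as covariate, each library left out in turn and, added after the data were seen, coverage per gigabase and the base level.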

Additional observations from a re-analysis of the deposited data

How the results depend on the processing

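No paired analysis was possible because the genotypes share no replicate number. None of the 10 genes passed the adjusted threshold or an unadjusted p of 0.05 under any alternative that was run, and no gene of the 6 lists passed the adjusted threshold. The smallest unadjusted limma p was 0.0618, for *Apc* without QC10 (adjusted p = 0.993), and the smallest adjusted p was 0.601, for *Apc* with array quality weights. Of all genes, 2 passed as deposited, 1 with no filter, 1 with median centring, 4 with centring on epithelial markers, and 1 to 5 with each library left out in turn. At an unadjusted p under 0.05 there were 481 genes as deposited, 976 with no filter, 260 with a minimum FPKM of 5, 201 with epithelial centring, 1270 with array quality weights (QC6 weighted 0.237, QC5 3.09) and 353 to 824 with libraries left out, the last without QC6. Of the 10 genes, 1 was apart between the genotypes as deposited (7.54% of all genes), 0 with quantile normalization or median centring, and 2 with epithelial centring (2.39%). With libraries left out, 1 to 3 were apart. These were *Apc*, *Gsk3b* and *Axin1* without QC10, where 20.3% of all genes were apart, and *Tcf7* and *Axin1* without QC4, where 16.9% were. Without each of the other libraries *Axin1* alone was apart, where 12.7% to 23.7% of all genes were.

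The difference changed sign between settings in *Gsk3b*, *Lef1*, *Tcf7l2* and *Myc*. With quantile normalization, median centring and epithelial centring, *Gsk3b* was at -0.0093, -0.010 and -0.0089, *Lef1* at -0.035, -0.0061 and -0.0049, and *Tcf7l2* at -0.035, -0.013 and -0.012. Array quality weights gave *Lef1* -0.11 and *Tcf7l2* -0.073, and TPM gave *Myc* 0.017. Over fits that left out 1 library, the difference ran from -0.012 to 0.12 in *Gsk3b*, from -0.082 to 0.16 in *Lef1*, from -0.066 to 0.14 in *Tcf7l2* and from -0.23 to 0.11 in *Myc*. The cause was not tested. The difference in TCF share (percent in PCdel minus WT) ran, over fits with 1 library left out, from 0.992 to 4.55 in *Tcf7*, -3.70 to -0.629 in *Tcf7l2*, -1.04 to 0.211 in *Lef1* and -0.585 to 0.736 in *Tcf7l1*. TPM shifted the median difference of all genes to 0.10. Depth was similar across libraries (5.407 to 5.876 gigabases), and 3 mice a group leave the intervals given above.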
